A study of Mus musculus with 288 samples.

Results

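The granins are acidic proteins packed with peptide hormones into the dense-core granules of endocrine cells, and 6 of the 46078 mouse genes in the count table were followed here by name: Chga, Chgb, Scg2, Scg3, Scg5 and Vgf. The cells came from the upper small intestine of 3 male GLU-Venus mice (C57BL6 background) aged 20 to 21 weeks, in which the fluorescent protein Venus is driven by the proglucagon promoter, and the sorted cells were sequenced 1 by 1 with Smart-seq2. The labels give 3 pools of 96 cells each, SLX-11175, SLX-11179 and SLX-9703, and every cell is labelled as an L-cell. They give neither the mouse nor the Venus signal of a cell. Each pool is taken as 1 mouse, so that p-values rest on 3 pools. By the methods SLX-9703 held Venus-positive cells, and non-fluorescent control cells of the other 2 pools could not be separated here. No treatment was given, so the comparisons are between cells of different hormone content. Cells with at least 20000 reads on mouse genes and at most 20% mitochondrial reads were kept, which left 250 of 288 cells (75, 87 and 88 by pool).

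Chromogranin A (Chga) and chromogranin B (Chgb) are the founding members, which bind calcium and help to concentrate the cargo of the forming granule. Secretogranin 2 (Scg2) is cut into the peptide secretoneurin, secretogranin 3 (Scg3) binds chromogranin A and tethers it to the granule membrane, and Scg5 encodes 7B2, the chaperone of prohormone convertase 2. Vgf is a precursor of several secreted peptides. Gut endocrine cells are classically recognised by chromogranin A staining, and the granins are cut by the same convertases as the hormones they travel with.

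Cells were grouped by CPM, the reads of a gene per 1000000 reads on mouse genes. Gcg-high cells had 10000 CPM or more of Gcg, which encodes proglucagon, Gip-high cells 10000 or more of Gip, the incretin of K-cells, and Pzp-positive cells 100 or more of Pzp, a protease inhibitor of the alpha-2-macroglobulin family. Cck-high cells had 10000 or more of Cck, the cholecystokinin gene, and were below the other 3 thresholds, and the remaining cells were below all 4. Over the 3 pools there were 53 Gcg-high, 25 Gip-high, 64 Pzp-positive, 37 Cck-high and 66 remaining cells, and 5 cells met 2 thresholds.

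The median kept cell had 52571, 70726 and 1975706 reads in the order of pools above, which holds throughout, so low levels were resolved best in the last. Gip-high cells were shallower than Gcg-high cells in SLX-11175 (medians 28664 and 62648 reads) and in SLX-9703 (831266 and 2400022), and deeper in SLX-11179 (110587 and 71332). The 6 listed pan-endocrine transcription factors had summed medians of 599 to 2067 CPM in the hormone groups, against 0, 41.3 and 283 CPM in the remaining cells by pool. In the first 2 pools single factors, mostly Nkx2-2 and Rfx6, had a median of 0 in every hormone group but Gip-high of SLX-11179. The 6 listed enterocyte markers summed to medians of 163 to 2658 CPM in the hormone groups, against 90.9, 260 and 530 CPM in the remaining cells. Alpi had a median of 0 throughout. Of the 66 remaining cells 14, 9 and 3 by pool had 1000 CPM or more of leukocyte markers, which goes against the L-cell label, as did 2 Pzp-positive cells of SLX-11179 and 1 Gcg-high cell of SLX-9703.

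Chgb (ENSMUSG00000027350) lies on chromosome 2 at 132781278 to 132795079 on the plus strand of mm10, and Chga (ENSMUSG00000021194) on chromosome 12 at 102554969 to 102565028, also plus. Scg2 (ENSMUSG00000050711) lies on chromosome 1 at 79434669 to 79440120, Scg3 (ENSMUSG00000032181) on chromosome 9 at 75643189 to 75684056, and Scg5 (ENSMUSG00000023236) on chromosome 2 at 113776362 to 113829121, these 3 on the minus strand. Vgf (ENSMUSG00000037428) lies on chromosome 5 at 137026392 to 137033351, plus strand. In GENCODE M21 only Scg3 overlaps another gene, Gm37871 on the opposite strand, and reads of that pair cannot be told apart because the protocol does not mark the strand.

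The promoters of 5 members were in the RefSeq promoter table (GRCm38.p6), and these members moved partly together, so the cyclic AMP response element (CRE), a known element of the chromogranin promoters, was searched in the 250 bases before each start on both strands. Each line is a 30-base window read along the strand of the gene, with the CRE letters in capitals.
Chgb, chr2:132781558-132781587: ggggctgctccgTGACGTCAgggctgagcg
Scg2, chr1:79440077-79440106: aggctgagccggTGACGTCAgcgtggaatg
Chga, chr12:102554885-102554914: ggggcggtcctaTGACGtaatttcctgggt
Scg3, chr9:75684069-75684098: gcgctgggtcgcTGACGccatcctcacgcc
Scg5, chr2:113829249-113829278: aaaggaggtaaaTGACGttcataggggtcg
Chgb and Scg2, the 2 most abundant granins here, held the full palindrome TGACGTCA, 72 and 68 bases before the start, and 1.55% of 32851 mouse promoters held it in a window of this length. Chga, Scg3 and Scg5 held the core TGACG, which is part of the full site, 44, 30 and 175 bases before the start, as did 17.8% of promoters. All 30 bases of the Chgb and Scg2 windows fall within exons that GENCODE gives to longer transcripts of these genes. Of 3 other motifs searched, the GC box GGGCGG was found in Chga, Chgb and Scg5 (32.7% of promoters), and TATAAA (12.4%) and the E-box CAGATG (14.4%) in none of the 5 windows. A match describes the letters only.

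Among all kept cells 227 had a read of Chgb, 222 of Scg2, 202 of Scg3, 198 of Chga, 196 of Scg5 and 73 of Vgf. Levels per group are the CPM of the summed reads of its cells in each pool. Chgb stood at 13116, 18467 and 33014 CPM in Cck-high cells by pool and at 14770, 12470 and 28148 CPM in Gcg-high cells. It stood at 1587, 1290 and 3702 CPM in Pzp-positive cells and at 659, 2496 and 3720 CPM in Gip-high cells. The Cck-high and Gcg-high ranges overlapped, as did the Pzp-positive and Gip-high ranges, and the remaining cells (97.6 to 424 CPM) were below all of them.

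Scg2 had another order. Pzp-positive cells had 4032, 5673 and 8980 CPM, Cck-high cells 2851, 5727 and 8892 CPM and Gcg-high cells 3093, 4010 and 6643 CPM, and these 3 ranges overlapped. Gip-high cells had 188, 587 and 1395 CPM, below all 9 of those sums. Chga, like Chgb, was highest in Cck-high cells (708 to 1689 CPM) and Gcg-high cells (410 to 1139 CPM), at a lower level. It had 101 to 322 CPM in Pzp-positive cells and 28.5 to 113 CPM in Gip-high cells. Unlike for Chgb, the remaining cells (153, 208 and 182 CPM) were above the Gip-high sum in each pool. They were also above the Pzp-positive sum of SLX-11179. Scg3 and Scg5 were the flattest members: Scg3 had 197 to 425 CPM in the Gcg-high, Pzp-positive and Cck-high sums, and Scg5 146 to 368 CPM. In Gip-high sums Scg3 had 47.6, 51.9 and 220 CPM and Scg5 136, 124 and 247 CPM. Across pools these overlapped the low end of the other hormone groups. Within each pool both members were lowest in the Gip-high sum among the hormone groups.

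**Figure D1:**
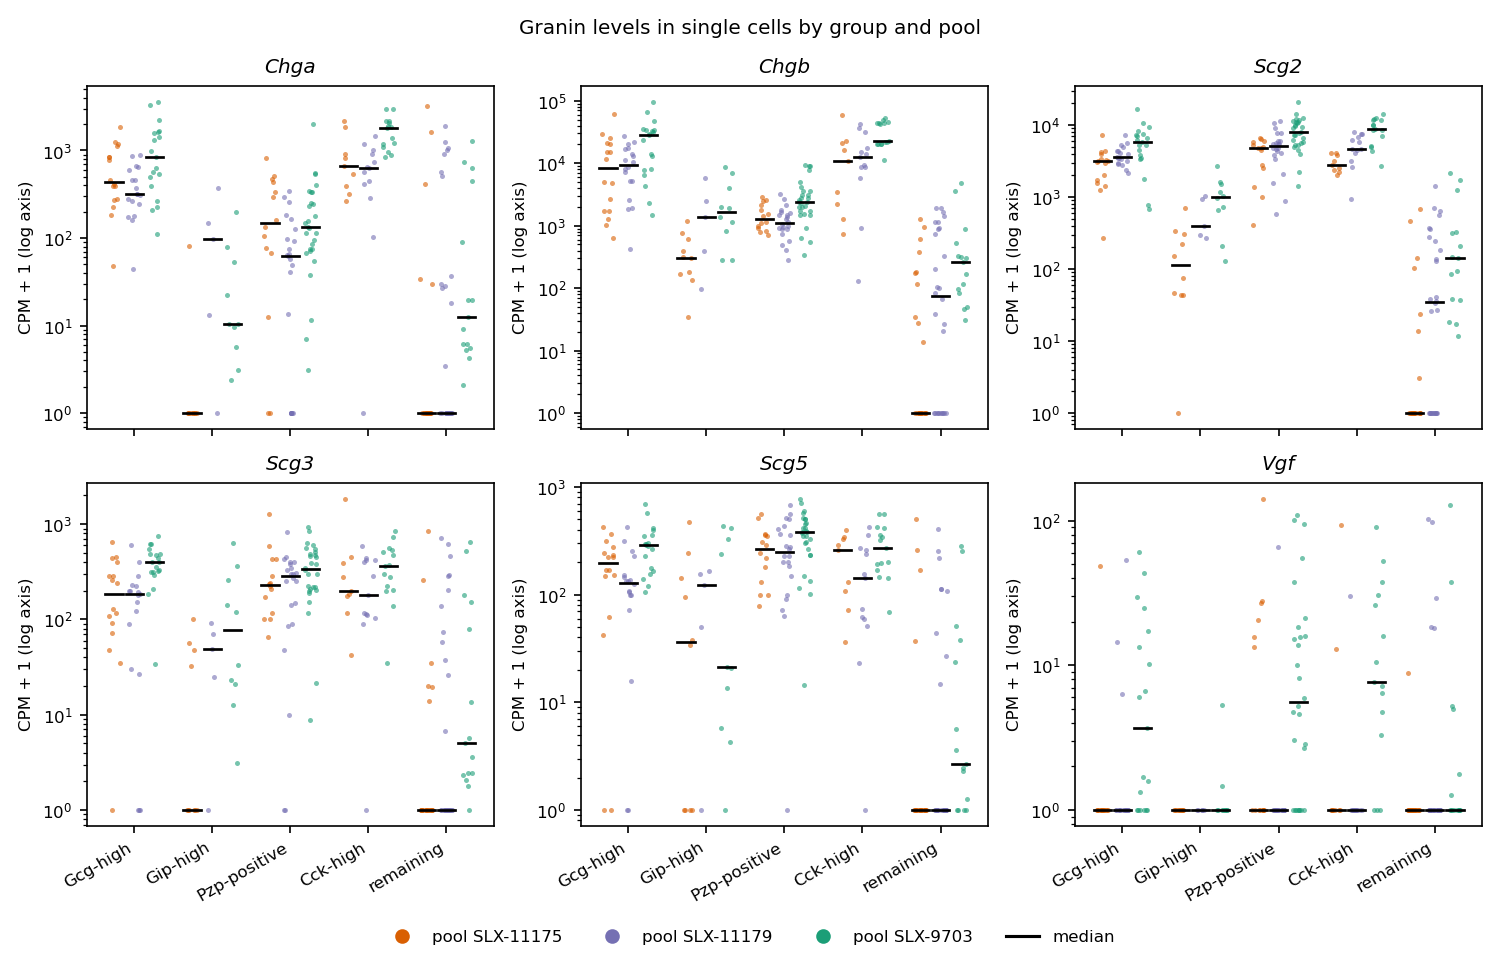
Level of each granin in single cells (CPM + 1, log axis) by group of cells, with pools as colours and black lines at the median of each group and pool. Medians of Chgb are 8407 to 28465 CPM in Gcg-high and 1103 to 2397 CPM in Pzp-positive cells, whereas those of Scg2 are 113 to 1009 CPM in Gip-high and 4786 to 7910 CPM in Pzp-positive cells.

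Gcg-high cells were compared with Pzp-positive cells to ask whether cells rich in proglucagon RNA and cells marked by Pzp carry the same granins. Chgb rose and Scg2, Scg3 and Scg5 did not pass the test. By pool, the single Gcg-high cells had 637 to 62035 CPM of Chgb (median 8407), 418 to 27701 CPM (median 9517) and 1482 to 96937 CPM (median 28465). Pzp-positive cells had 697 to 2835 CPM (median 1271), 283 to 3161 CPM (median 1103) and 336 to 9243 CPM (median 2397). The lowest Gcg-high cells overlapped the Pzp-positive cells in every pool, but the summed level was higher in 3 of 3 pools, 9.97-fold by the fit (log2 fold change 3.32 ± 0.50, SE; adjusted p = 0.00884, edgeR quasi-likelihood test with Benjamini-Hochberg adjustment over 10738 genes).

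Chgb was the 1 granin called of 6 tested, where 0.0745% of all genes were called higher and 0.0559% lower. Chga was 1.94 ± 0.55 higher on the log2 scale and higher in 3 of 3 pools, with an adjusted p of 0.309 in the same edgeR test. It was called in 4 of 19 alternatives, with no filter on low counts (1.88, adjusted p = 0.0341), in thinned cells (1.94, 0.0360), with Pzp-positive cells at 500 CPM (2.77, 0.0292), all in edgeR, and with limma on the mean log2(CPM + 1) of cells (2.93, 0.0296). The differences in Scg2 (-0.23 ± 0.42), Scg3 (-0.12 ± 0.50) and Scg5 (-0.31 ± 0.44) were smaller than their standard errors. No granin was called lower by edgeR, DESeq2 or limma, and 0 of 6 had an unadjusted p under 0.05 in that direction in edgeR. DESeq2 called 0.466% of all genes higher and 0.503% lower, and limma 0.391% and 0.996%. The median over the 5 members other than Vgf was -0.12, beside 0.02 for all genes. The Chgb call was lost without pool SLX-11175 (adjusted p = 0.172) or SLX-11179 (0.123), with spike-in scaling (0.103), without the pool as block (0.115) and with a minimum of 750000 reads in SLX-9703 (0.0581), all in edgeR. The log2 difference was 3.10 to 3.37 in these fits, and over all 19 alternatives the adjusted p ran from 8.8e-19 to 0.172. The 5 goblet markers, led by Tff3, summed to medians of 3447, 3175 and 5338 CPM in Pzp-positive cells and 298, 441 and 570 CPM in Gcg-high cells, with Muc2, Clca1 and Zg16 at a median of 0 in both, and their part in the difference was not tested.

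The make-up of the granin signal is given per length as a description, with no test. Per kilobase of exon, Chgb made up 75.8, 70.4 and 75.2% of granin reads in Gcg-high cells and Scg2 17.3, 24.7 and 19.3%. In Pzp-positive cells the order was turned, with 22.4, 15.4 and 24.9% for Chgb and 62.1, 73.7 and 65.9% for Scg2. Cck-high cells resembled Gcg-high cells in this, with 72.3% ± 0.931 for Chgb and 20.9% ± 3.44 for Scg2 (SD, n = 3 pools). Chgb also came first in Gip-high cells, with 63.2% ± 7.52, beside 20.4% ± 4.49 for Scg2 and 11.2% ± 7.78 for Scg5. Single Gip-high cells had more Scg2 than Chgb per kilobase in 2 of 10, 1 of 5 and 1 of 10 cases by pool. Cell by cell, Scg2 per kilobase was above Chgb in 12 of 14, 21 of 22 and 27 of 28 Pzp-positive cells, and in 5 of 16, 4 of 18 and 1 of 19 Gcg-high cells. The median log2 ratio of Scg2 to Chgb was taken on CPM + 1, without scaling by length. It was 1.11, 1.90 and 1.59 in Pzp-positive cells and -1.41, -1.41 and -1.86 in Gcg-high cells, so the pools did not overlap.

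**Figure D2:**
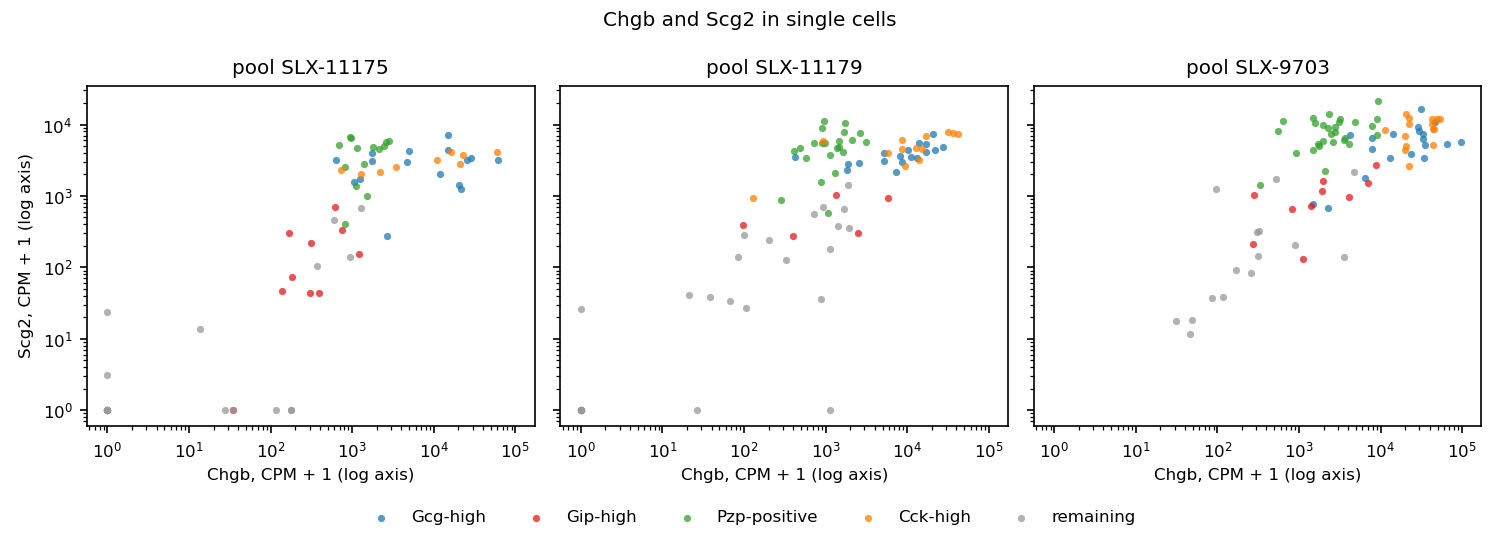
Chgb (x axis) and Scg2 (y axis) in single cells of each pool, CPM + 1 on log axes, coloured by group. Gcg-high and Cck-high cells spread to the right at a Scg2 level close to that of Pzp-positive cells, which stand upper centre, and most Gip-high cells lie below both.

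**Figure D3:**
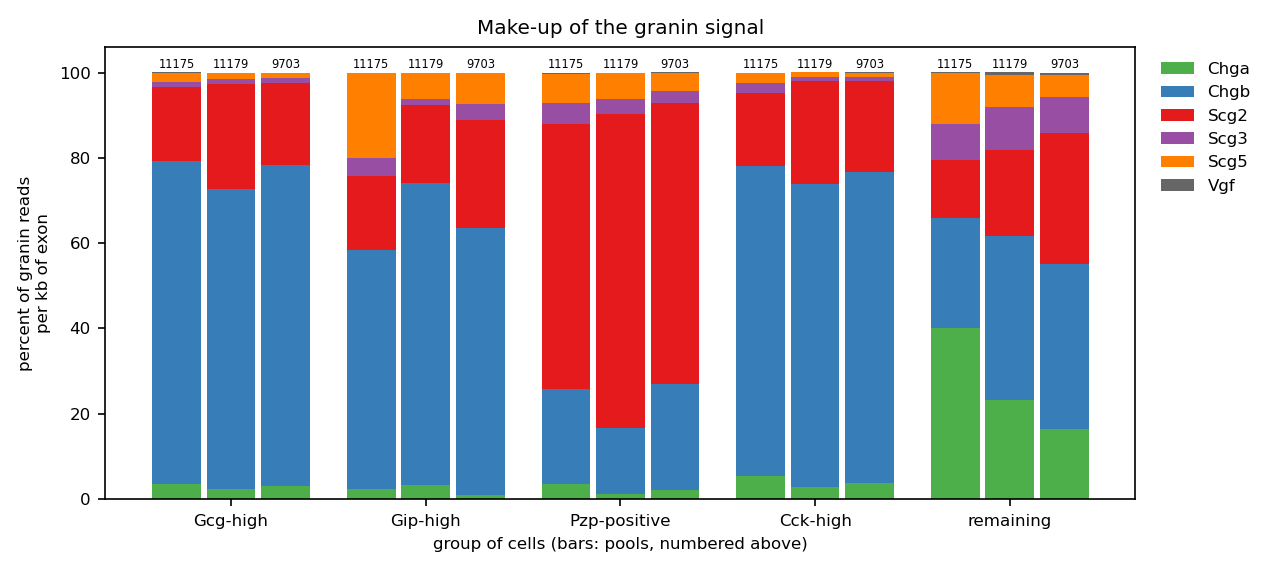
Percent of granin reads per kilobase of exon by member, for each group of cells and pool (bars from left to right: SLX-11175, SLX-11179, SLX-9703). Chgb takes 70.4 to 75.8% in Gcg-high cells and Scg2 62.1 to 73.7% in Pzp-positive cells.

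Gcg-high cells were then compared with Gip-high cells, 2 groups that both hold incretin RNA. Chga, Chgb and Scg2 were all higher in Gcg-high cells, in 3 of 3 pools each, while Scg3 and Scg5 did not pass the edgeR test. Chga was found in 1 of 10, 4 of 5 and 10 of 10 Gip-high cells by pool, with medians of 0, 97.0 and 9.48 CPM, against medians of 437, 320 and 850 CPM in Gcg-high cells, all of which had a read. After each cell was thinned to 20000 reads, Chga was left in 1 of 10, 3 of 5 and 2 of 10 Gip-high cells (2 of 10 is 20.0%, exact 95% interval 2.52 to 55.6%, counting error only) and in 16 of 16, 17 of 18 and 19 of 19 Gcg-high cells.

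The fitted difference was 2.87 ± 0.58 for Chga (log2, SE; adjusted p = 0.0190), 2.63 ± 0.49 for Chgb (0.0124) and 2.38 ± 0.44 for Scg2 (0.0124) by the edgeR quasi-likelihood test, that is 7.32-, 6.19- and 5.19-fold. These are 3 of 6 granins called higher, where 0.81% of all genes were called higher and 0.289% lower. Scg3 differed by 0.91 ± 0.52 and Scg5 by -0.16 ± 0.44, and the sign of Scg5 turned with hormone-free scaling (0.22), spike-in scaling (0.65) and limma on the mean log2(CPM + 1) of cells (2.08, adjusted p = 0.0117). The median of all genes was 0.60, 1.00 and 0.50 in these 3 fits, beside 0.23. In thinned cells (0.23, with a median of all genes of 0.21) and without 1 of the pools the sign of Scg5 turned as well. It was kept in 14 of 19 alternatives. Limma also called Scg3 (2.91, adjusted p = 0.00171) and so 5 of 6 granins higher, where it called 16% of all genes higher and 1.17% lower (DESeq2 3.27% and 1.81%). No granin was called lower by edgeR, DESeq2 or limma, and 0 of 6 had an unadjusted p under 0.05 in that direction. The median over the 5 members other than Vgf was 2.38, beside 0.23 for all genes.

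All 3 calls were lost without pool SLX-11175 (edgeR adjusted p from 0.126 to 0.252), without SLX-11179 (0.0614 to 0.189) and when cells needed 50000 reads (0.0861 to 0.159), with each member still higher by 2.00 or more on the log2 scale. Chga was also lost without SLX-9703 (edgeR adjusted p = 0.141), Chgb and Scg2 without the pool as block (0.122 and 0.172) and Chgb with a minimum of 750000 reads in SLX-9703 (0.0588). Over the 19 alternatives the highest adjusted p was 0.252 for Chga, 0.167 for Chgb and 0.189 for Scg2, and each was called in 14 or 15 of them. Hormone RNA filled 12.2, 49.6 and 17.8% of the reads of the median Gip-high cell and 25.6, 28.1 and 31.6% of the median Gcg-high cell. With hormone and mitochondrial genes left out of the library size the differences were 3.11 for Chga, 2.96 for Chgb and 2.76 for Scg2, and all 3 calls held.

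The granin level of Gip-high cells was itself spread widely. In SLX-9703 the 4 Gip-high cells with 2169372 reads or more had 1933 to 8755 CPM of Chgb and 1179 to 2702 CPM of Scg2, and the 6 shallower cells 276 to 4049 and 128 to 1038 CPM. The 4 deep cells were also those with the most Gip. Within Gip-high cells, Scg2 had a rank correlation with Gip of 0.55 (10 cells), 0.20 (5 cells) and 0.90 (10 cells), and Chgb of 0.67, 0.30 and 0.59. In SLX-9703 mitochondrial reads made up 1.75 to 2.83% in the 4 deep cells and 2.1 to 15.2% in the 6 shallower cells. These cells share a library pool and differ in depth, and the parts of depth and of the mitochondrial share were not tested. Scg5 was split in SLX-9703, with 239 to 432 CPM in the 4 deep cells and at most 20.2 CPM in the 6 others.

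Gip-high and Pzp-positive cells were set against each other in the third comparison, and the comparisons share sums of cells with each other. Scg2 fell in Gip-high cells and no other granin passed the test. By pool the single cells had 0 to 703, 271 to 1014 and 128 to 2702 CPM of Scg2 in Gip-high cells and 408 to 6681, 580 to 11237 and 1418 to 21078 CPM in Pzp-positive cells. The ranges overlapped at their ends in each pool, but the medians lay apart, at 113, 388 and 1009 CPM in Gip-high cells against 4786, 5118 and 7910 CPM in Pzp-positive cells. The fitted difference was -2.61 ± 0.45 (6.09-fold lower; adjusted p = 0.00336, edgeR quasi-likelihood test), lower in 3 of 3 pools.

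That is 1 of 6 granins called lower and 0 called higher, where 1.67% of all genes were called lower and 0.885% higher. No granin was called higher by DESeq2 or limma either, and 0 of 6 had an unadjusted p under 0.05 in that direction in edgeR. Chgb was 0.69 ± 0.47 higher (adjusted p = 0.541 in edgeR), and its value was -0.19 with spike-in scaling and -1.03 with limma on mean log2(CPM + 1), fits in which the median of all genes moved from -0.22 to -1.13 and to -0.59. Chga differed by -0.94 ± 0.56, Scg3 by -1.03 ± 0.52 and Scg5 by -0.15 ± 0.44. The median over the 5 members other than Vgf was -0.94, beside -0.22 for all genes. The Scg2 call was lost without SLX-11175 (edgeR adjusted p = 0.0614) without SLX-11179 (0.0856) and without the pool as block (0.0874), and held in the other 16 of 19 alternatives. Goblet markers summed to medians of 0, 252 and 138 CPM in Gip-high cells, below the Pzp-positive values given above, and their part was not tested. With limma on the mean log2(CPM + 1) of cells, which gives each cell the same weight, 5 of 6 granins were called lower in Gip-high cells, where limma called 22.1% of all genes lower and 1.69% higher (DESeq2 4.45% and 2.85%).

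**Figure D4:**
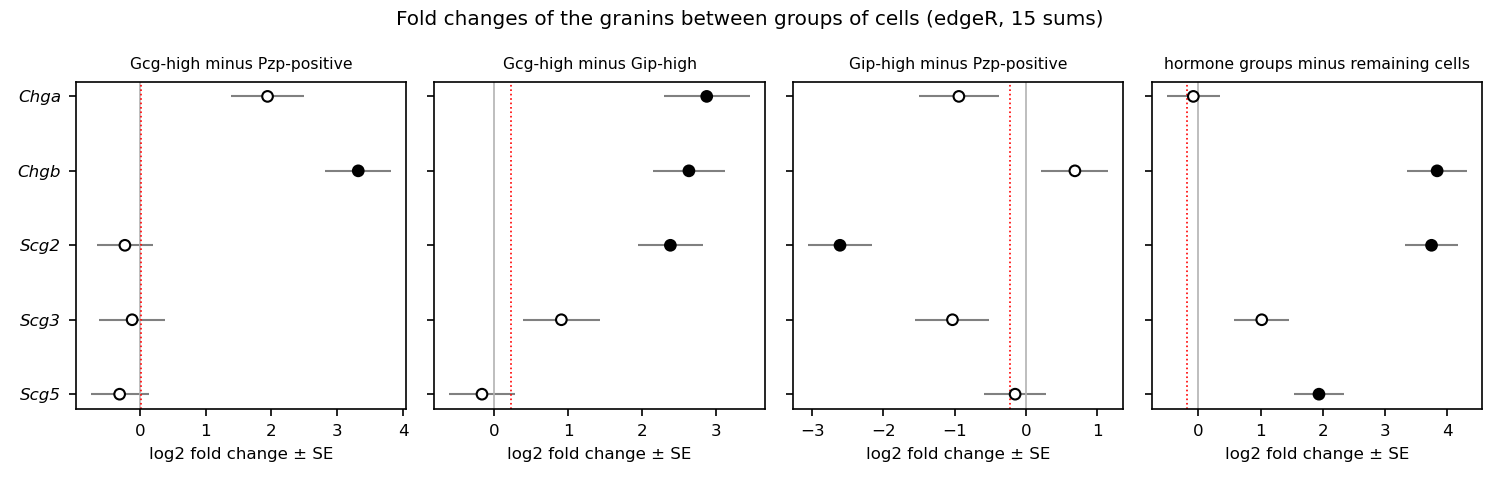
Log2 fold changes (± SE) of 5 granins in the 4 comparisons by edgeR on 15 sums of cells, with filled points for an adjusted p under 0.05 and a dotted red line at the median of all genes. Vgf is left out because Gip-high cells held 3 of its reads in all. Chgb is the 1 filled point of Gcg-high minus Pzp-positive (3.32) and Scg2 that of Gip-high minus Pzp-positive (-2.61).

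Vgf was sparse everywhere. Its 2409 reads fell in 73 of 250 cells, and the highest summed level was 18.5 CPM, in Cck-high cells of SLX-9703. In that pool 13 of 19 Gcg-high, 20 of 28 Pzp-positive and 12 of 15 Cck-high cells had a read, against 2 of 10 Gip-high cells. Gip-high cells held 0, 0 and 3 reads of Vgf in all, Gcg-high cells 5, 4 and 654 and Pzp-positive cells 11, 6 and 1074, so that the shallow pools rest on few reads. In SLX-11175 6 of 14 Pzp-positive, 1 of 16 Gcg-high and 0 of 10 Gip-high cells had a read. In SLX-11179 these were 1 of 22, 3 of 18 and 0 of 5. After thinning, 4 of 14 Pzp-positive cells of SLX-11175 and 0 of 22 of SLX-11179 had one. Thinned to 20000 reads, 4 of 28 Pzp-positive and 0 of 10 Gip-high cells of SLX-9703 had a read, and 0 of 10 allows a share of up to 30.8% in that pool (exact 95% interval, counting error only). These cells are of 1 pool, so the groups were not compared by them. Vgf passed the test in none of the 4 comparisons in edgeR (adjusted p = 1, 0.203 and 0.101 in the first 3 and 0.606 for hormone groups against remaining cells). It was called lower in Gip-high than in Pzp-positive cells in 3 of 18 alternatives (adjusted p from 0.0137 to 0.506), and its fitted fold changes rest on these few reads.

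The mean of the 4 hormone groups was last set against the remaining cells, to ask whether granins mark cells with a hormone. Chgb, Scg2 and Scg5 rose. Chgb was higher by 3.84 ± 0.48 (log2, SE; adjusted p = 6.1e-05), Scg2 by 3.75 ± 0.43 (2.7e-05) and Scg5 by 1.94 ± 0.40 (0.00638) in the edgeR quasi-likelihood test, and Scg3 by 1.02 ± 0.44 (0.188). Chga did not differ beyond its error (-0.08 ± 0.43), and its value was 1.32 with hormone-free and 1.18 with spike-in scaling, which moved the median of all genes to 0.88 and 0.86. With limma on the mean log2(CPM + 1) of cells, which weights cells equally, Chga was called higher (3.59, adjusted p = 2.8e-05), as were Scg3 (3.99, 4.9e-07) and 5 of 6 granins in all, where limma called 20.5% of all genes higher and 0.959% lower (DESeq2 6.01% and 7.46%). Scg3 was also called in edgeR with hormone-free scaling (2.21, adjusted p = 0.00974) and spike-in scaling (2.05, 0.0227). These are 3 of 6 granins called higher, where 2.17% of all genes were called higher and 4.14% lower. No granin was called lower by edgeR, DESeq2 or limma, and 0 of 6 had an unadjusted p under 0.05 in that direction. The median over the 5 members other than Vgf was 1.94, beside -0.18 for all genes. Over the 19 alternatives the adjusted p of Chgb reached 0.00263 and that of Scg2 0.00138 at most, and both were called in all 19. The Scg5 call was lost without SLX-9703 (edgeR adjusted p = 0.108), with at most 10% mitochondrial reads (0.0799) and without leukocyte-marker cells (0.276, difference 0.93).

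The Chga value of the remaining cells came from few cells. The median remaining cell had 0, 0 and 11.6 CPM of Chga, yet the summed level was 153, 208 and 182 CPM, and 3 cells held 99.5, 54.8 and 85.6% of the Chga reads by pool. Some of these cells were rich in Nts, the neurotensin gene, which was not among the 4 thresholds. Remaining cells with 100000 CPM or more of Nts, a threshold set after these values were seen, numbered 2, 7 and 1 and held 96.6, 98.7 and 57.4% of the Chga reads of the remaining cells.

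Chga was high relative to Chgb in the Nts-rich cells. Chga ran from 517 to 3182 CPM in these 10 cells, beside medians of 320 to 850 CPM in Gcg-high cells, whereas Chgb ran from 98.1 to 1933 CPM. Scg2 ran from 180 to 1403 CPM and Scg3 from 137 to 849 CPM. Without these 10 cells the fitted difference to the hormone groups was 3.51 for Chga, 3.91 for Scg3, 4.30 for Scg5, Chgb 5.07 and Scg2 5.29 on the log2 scale. These cells were singled out after their granin values were seen, so the differences are a description, with no test. In the other 56 remaining cells the median of Chga was 0, 0 and 9.83 CPM and that of Chgb 0, 19.9 and 214 CPM.

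The 5 cells that met 2 thresholds are given as single values. The 4 cells high in both Gcg and Gip had 2013 to 67725 CPM of Chgb and 715 to 10298 CPM of Scg2. The lowest of them was the cell with 202354 CPM of Gip and 17954 CPM of Gcg, and the highest the cell with 135588 CPM of Gcg and 11717 CPM of Gip. In the Gcg and Gip cell of SLX-11179, Chgb was 46279 CPM, above the Gcg-high cells of that pool, while Scg2 was 1072 CPM, below their lowest value of 2182 and near the Gip-high maximum of 1014. The 1 cell high in Gcg and Pzp had 22646 CPM of Chgb and 4989 CPM of Scg2.

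Over all kept cells of a pool, granin levels were set against hormone levels by Spearman's rho on log2(CPM + 1), as a description with no test, since cells share a library pool, depth and total. Chgb went most closely with Cck (0.84 over 75 cells, 0.78 over 87 and 0.65 over 88 by pool) and with Gcg (0.77, 0.68 and 0.62). Scg2 also went with Cck (0.86, 0.82 and 0.75), followed by Sct, the secretin gene (0.74, 0.67 and 0.64). Chga was highest with Sct in the shallow pools (0.67 and 0.60) and with Gcg in SLX-9703 (0.58). None of the 6 members exceeded 0.09 with Gip in any pool. Over only the 52, 59 and 73 cells past a threshold, which the thresholds themselves set apart on Gcg, Gip, Pzp and Cck, the mean over pools was 0.58 for Chgb with Gcg (0.69 over all cells), 0.59 for Chgb with Cck (0.76) and 0.62 for Scg2 with Cck (0.81). It was 0.13 for Scg2 with Gcg, beside 0.48 over all cells, and -0.04 for Scg5 with Gcg, beside 0.30.

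Scg2 and Chgb parted most on Pzp. Scg2 had a rho with Pzp of 0.54, 0.48 and 0.30, and Chgb of 0.18, -0.11 and -0.28. Over only the cells past a threshold the mean was 0.37 for Scg2 (0.26 to 0.50) and -0.44 for Chgb (-0.61 to -0.17). The thresholds split these cells on Pzp, so both values restate the differences between the groups given above. Scg5 went with Pzp much as Scg2 did (0.43, 0.49 and 0.28). For Tph1, the enzyme of serotonin synthesis, Scg5 had 0.42, 0.20 and 0.29 and Chgb 0.05, -0.13 and -0.38. The sparse Vgf had 0.55, 0.14 and 0.22 with Tph1 and 0.48, -0.01 and 0.09 with Pzp. Within Pzp-positive cells alone Scg2 still had a rho with Pzp of 0.63, 0.31 and 0.36 (14, 22 and 28 cells), and Chgb of -0.02, 0.02 and 0.05.

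Within Gcg-high cells the order changed. Chgb had a rho with Gcg of -0.59, -0.62 and -0.19 (16, 18 and 19 cells), the opposite sign of that over all cells, and with Cck of 0.57, 0.63 and 0.71. Chga in Gcg-high cells had -0.29, -0.62 and -0.12 with Gcg. CPM is a share of the reads, so a gene that fills more of a cell leaves less for the others, and the part of this in the negative values was not tested.

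**Figure D5:**
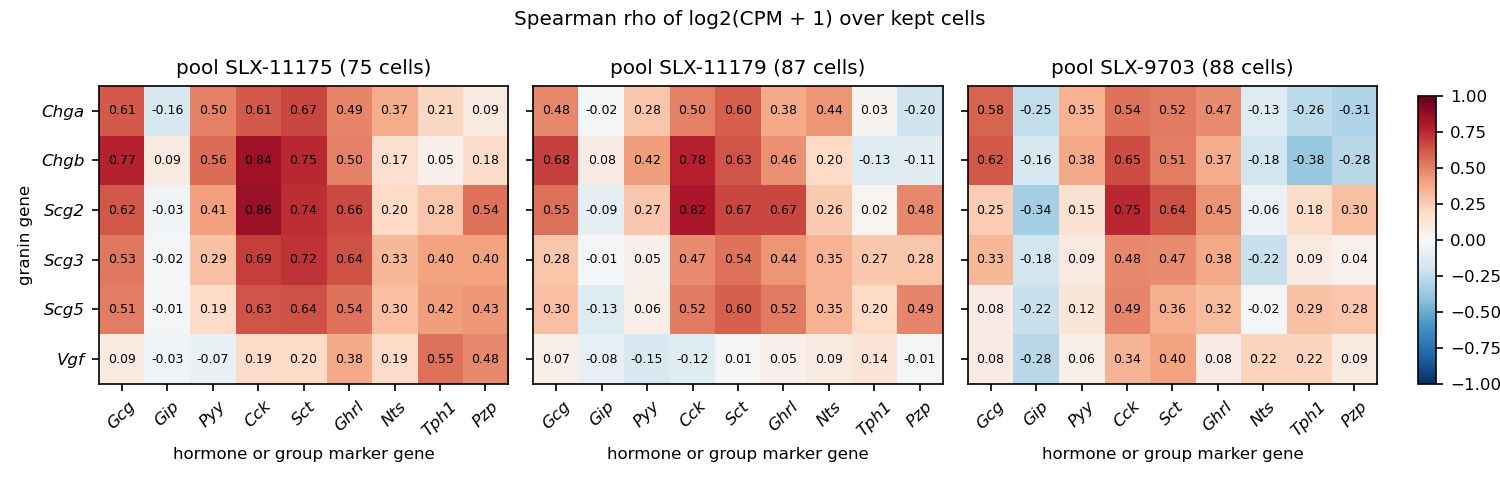
Spearman's rho between each granin (rows) and each hormone or marker gene (columns) over the kept cells of each pool, printed in each field and coloured from -1 (blue) to 1 (red). The Cck column is highest for Chgb and Scg2 (0.65 to 0.86), the Gip column lies between -0.34 and 0.09, and the Nts column changes sign in SLX-9703 for 5 of 6 members.

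Over all kept cells of a pool, the 66 remaining cells included, the granins other than Vgf were all positively related to each other. Chga and Chgb were the closest pair, with a mean rho over pools of 0.78 (0.74 to 0.80), followed by Chgb with Scg2 at 0.69 (0.59 to 0.80) and Scg2 with Scg5 at 0.66 (0.62 to 0.70). Chga and Scg5 were less close, at 0.47 (0.37 to 0.62). Vgf had mean values of 0.10 to 0.27 with the other 5, and single values of 0.18 to 0.35 in SLX-9703, the deepest pool. Over only the cells past a threshold Chga with Chgb kept its mean of 0.78, whereas Chgb with Scg2 had 0.37, Scg2 with Scg5 0.41, Scg2 with Scg3 0.30, Chgb with Scg5 0.13 and Chga with Scg5 0.13 (-0.04 to 0.27). Those 5 pairs were lower without the remaining cells. Within Gcg-high cells Chga and Chgb stayed close (0.68, 0.64 and 0.68).

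The genes most like each granin were taken from 1189 genes with a read in 50% or more of the cells of every pool, the granins left out. They were ranked by the mean rho over the 3 pools, over all kept cells, the 66 remaining cells included. Over only the cells past a threshold the mean with Cck was lower, at 0.59 for Chgb and 0.62 for Scg2. For Chga these were Ffar1, a receptor for long-chain fatty acids (0.69), Bcam (0.67) and Resp18, a granule protein (0.64). For Chgb they were Cck (0.76), Cyp4b1 (0.74) and Cpe, the carboxypeptidase that trims prohormones (0.70). For Scg2 they were Selenop, a selenium carrier (0.82), Cck (0.81) and Lgals3bp (0.81). Scg3 was most like Tm4sf4 (0.65), Cpe (0.63) and Fxyd3 (0.62), and Scg5 most like Fxyd3 (0.69), Selenop (0.69) and Prnp (0.67). Vgf was in too few cells to be compared.

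The listed partners of the granins in dense-core granules are 18 genes for cutting, sorting and release of the cargo, and all 18 were tested. In the hormone groups 7 rose over the remaining cells (10 by DESeq2 and 14 by limma) and none fell (0 by DESeq2 and 0 by limma, and 0 at an unadjusted p under 0.05 in edgeR), where edgeR called 2.17% of all genes higher, DESeq2 6.01% and limma 20.5%, with a median of 1.40 beside -0.18 for all genes. Those that rose were Pcsk1, the convertase that cuts proglucagon to GLP-1 (1.87 ± 0.48, log2, SE; edgeR adjusted p = 0.0255), Cpe (2.22 ± 0.47), Pam, which amidates peptides (2.13 ± 0.41), Resp18 (1.77 ± 0.46), Cadps, which primes granules for release (3.65 ± 0.70), Syt13 (1.67 ± 0.43) and Ica1 (2.32 ± 0.50).

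Between the hormone groups the counts of partners are given beside the share of all genes called by the same tool. Between Gcg-high and Pzp-positive cells edgeR called 0.0745% of all genes higher and 0.0559% lower, and between Gcg-high and Gip-high cells 0.81% and 0.289%. In both comparisons 0 of 18 partners passed in edgeR and 0 in DESeq2. At an unadjusted p under 0.05 edgeR had 3 partners in each comparison. Limma on mean log2(CPM + 1), with its higher share of calls given above, called 1 and 4. Slc18a1, a vesicular monoamine transporter, was the 1 partner lower in Gip-high than in Pzp-positive cells, where edgeR called 1.67% of all genes lower and 0.885% higher (-2.09 ± 0.51; edgeR adjusted p = 0.0369), while DESeq2 called 2 partners higher and 1 lower and limma 1 higher and 5 lower, beside its 22.1% of all genes called lower. Among partners that did not pass, Furin differed by -2.23 ± 0.84, Ptprn2 by 1.76 ± 0.76 and Ica1 by 1.72 ± 0.53 between Gcg-high and Pzp-positive cells. Between Gcg-high and Gip-high cells Syt13 differed by 1.42 ± 0.49, Ica1 by 1.19 ± 0.54 and Pcsk1 by 1.08 ± 0.53. Pcsk2, the convertase that needs 7B2, had 0, 0 and 620 reads in Gcg-high cells, 5, 1 and 874 in Gip-high cells and 0, 0 and 21 in Pzp-positive cells, too few in the shallow pools for a fitted fold to be given.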

How the data were processed

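Single cells were sequenced by Smart-seq2, without molecular identifiers. The authors deposited raw counts per gene and cell, made per the submitters' processing notes with GSNAP 2015-09-29 on mm10 and HTSeq 0.5.3p3. Lines that name no gene hold 77.6% of all counts and spike-ins 5.34%, and both stayed out of library sizes. A further 4 columns matched no sample and were not used. Symbols and exon lengths come from GENCODE M21.

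Since single cells do not replicate a group, reads of its cells were added up within each pool (15 sums, 3 or more cells each; cells in 2 groups left out), filtered with filterByExpr, scaled by TMM and tested in edgeR 4.0.16 (R 4.3.3), quasi-likelihood test, pool as block, at a false discovery rate of 0.05 over 10738 genes. Pools are taken as mice, and the groups of a pool as cells of 1 mouse, which is where the pairing comes from. After the mean of each group over pools was taken off, same-pool sums correlated by 0.02 to 0.38 (median 0.10, 30 pairs). Sums of different pools correlated by -0.66 to 0.08. Taking off the mean by itself sets the pools of a group against each other, so these values cannot show the pairing. DESeq2 1.42.0, limma 3.58.1 (pseudocount 1 CPM), other scalings and filters, thinning and leaving out each pool were alternatives. The fit was also tested on simulated counts, whose outcome is not given here and on which no result rests. No doublet caller was run on these sorted wells. Intervals are exact binomial and cover counting error only.

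The text names the 6 granins, the granule partners past the threshold (otherwise the 4 largest changes) and the 3 genes most like each granin. The members and lists were chosen with earlier results of these data known.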

Additional observations from a re-analysis of the deposited data

Results flagged for a closer look

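Of 22 sets of single-cell values (1 granin in the cells of 1 group and pool, for groups of 4 to 10 cells, on log2(CPM + 1)), 4 had 1 cell far from the others, where chance gives about 5% for values measured without a floor. All 4 were in Gip-high cells, which made up 16 of the 22 sets. In SLX-11175 1 of 10 cells had 79.5 CPM of Chga (12 reads in a cell of 150855) and the other 9 had 0. In the same pool 1 of 10 cells had 0 CPM of Scg2 against 42.9 to 703 in the others, where the nearest cell held 1 read. In SLX-11179 1 of 5 cells had 0 CPM of Scg5 against 49.2 to 165, in a cell of 20617 reads. In SLX-9703 1 of 10 cells had 4.28 CPM of Vgf (2 reads) and the others at most 0.461 (1 read). On this scale a count of 0 in a shallow cell is set apart by the pseudocount, so the 5% rate does not hold for these sets, and the Scg2 and Vgf values differ from the nearest cell by 1 read.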

How the results depend on the processing

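The called granins kept their direction under all 19 alternatives, and the Chgb and Scg2 calls against remaining cells held in all 19. The 3 pools, the Gip-high cells, shallow in SLX-11175 and SLX-9703, and the few reads of Vgf limit the precision of the rest. The cause of each change below was not tested. For Gcg-high minus Pzp-positive, Gcg-high minus Gip-high, Gip-high minus Pzp-positive and hormone groups minus remaining cells, 1, 3, 1 and 3 granins and 14, 118, 274 and 678 genes were called.

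Without the pool as block (which pairs groups taken as cells of 1 mouse) 0, 1, 0 and 3 granins and, in the first comparison, 8 genes were called. Leaving out each pool gave 0 to 1, 0 to 2, 0 to 1 and 2 to 3 granins, and 2 to 15, 25 to 27, 66 to 78 and 272 to 852 genes. DESeq2 called 104, 535, 784 and 1418 genes and 2 granins in the third comparison. No filter gave 59, 236, 442 and 2145 genes and 2 granins in the first. Limma on mean log2(CPM + 1) gave 2, 5, 5 and 5 granins and 149, 1841, 2559 and 2301 genes. Spike-in scaling gave 0 granins in the first and 3 in the third, with 4, 295 and 616 genes in the first 3, and hormone-free scaling 1048 genes in the last. Thinning gave 2 granins in the first and 52, 187 and 345 genes in the first, second and last. A minimum of 50000 reads gave 0 granins and 41 genes in the second and 113 genes in the third, and 750000 reads in SLX-9703 0 granins and 9 genes in the first. At most 10% mitochondrial reads gave 7 genes in the first and 449 in the last, and Pzp at 500 CPM 2 granins and 31 genes in the first. Of the alternatives chosen after seeing the data, leaving out leukocyte-marker cells gave 258 genes in the last, and leaving out Nts-rich remaining cells 76 genes in the second and 5 granins and 1191 genes in the last, which is no test of Chga, since these cells were picked after their Chga reads were seen.

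Signs turned for members that had not passed the edgeR test, and the limma values of Scg5 (2.08) and Chga (3.59) were past the threshold. Scg5 in Gcg-high minus Gip-high became 0.22 (hormone-free), 0.65 (spike-in), 0.23 (thinned), 2.08 (limma) and -0.19 to 0.10 (leaving out each pool), and in Gip-high minus Pzp-positive -0.51 to 0.03 (leaving out each pool) and 0.00 (50000 reads). Chgb there became -0.19 (spike-in) and -1.03 (limma). Chga against remaining cells became 1.32 (hormone-free), 1.18 (spike-in), 3.59 (limma), -0.57 to 0.46 (leaving out each pool; 0.11 without SLX-11179), 0.02 (hormones at 30000 CPM) and 3.51 (no Nts-rich cells), and Vgf 0.33 (limma) and -1.82 to 0.42 (leaving out each pool). Scg3 in Gcg-high minus Pzp-positive ran from -0.32 to 0.09 when each pool was left out. Scaling moved the median of all genes: spike-in scaling put it at -0.13, 1.00, -1.13 and 0.86 and hormone-free scaling at -0.04, 0.60, -0.63 and 0.88, beside 0.02, 0.23, -0.22 and -0.18. The share of calls that were higher was then 25, 93.9, 7.47 and 81.1% and 40, 79, 22.3 and 82.7%, beside 57.1, 73.7, 34.7 and 34.4%. Of 270 mean correlations with hormones under 5 alternatives, 47 moved by more than the SD over pools, 33 of the 54 over only cells past a threshold, 8 with Pearson's r and 6 elsewhere. With the first of these Chgb with Pzp went from -0.07 to -0.44, Scg2 with Gcg from 0.48 to 0.13 and Chgb with Ghrl from 0.44 to 0.07. Of the 270, 12 changed sign, 4 of them with a size of 0.1 or more.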
